A study of Mus musculus with 8 samples.

Results

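Chemokine transcripts were followed in mouse embryonic fibroblasts (MEFs) that lack or carry the transcription factor STAT3. The set was Cx3cl1, Ccl5, Ccl2, Ccl7, Cxcl1, Cxcl5, Cxcl10 and Cxcl12, 8 genes of the 8251 that the array's annotation names by a single symbol. A probe set, the group of short probes that reads 1 transcript, was included if its only symbol was one of these names, which gave 12 of the 12422 probe sets on the array. Cx3cl1 and Ccl5 were chosen by their log2 difference between the genotypes in untreated cells, so those differences are given as a description with no test.

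The study measured total RNA on 8 Affymetrix arrays in 4 groups of 2: STAT3-/- MEFs with oncostatin M (OSM), STAT3-/- MEFs without it, STAT3+/+ MEFs with OSM, and STAT3+/+ MEFs without it. OSM, a relative of interleukin-6 whose receptor contains gp130 and activates STAT3, was given at 20 ng/ml for 30 minutes. All cells were spontaneously immortalised and grew in DMEM with 10% heat-inactivated serum, 2 mM glutamine, penicillin and streptomycin. Each genotype is labelled as a cell line with no clone or embryo named, so the loss of Stat3 and any other difference between the lines cannot be told apart. Each group holds an array numbered 02 and an array numbered 03 in its title, and the labels say neither what the numbers mark nor that the arrays came from separate cultures. P-values therefore cover the spread from array to array alone, and that spread may be technical. In RNA from a whole culture, fewer cells that make a transcript and less of it per cell cannot be told apart.

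Chemokines are small secreted proteins that bind G protein-coupled receptors and guide the movement of leukocytes. They are named by the spacing of the cysteines near their amino end, as CC, CXC or CX3C ligands. Fibroblasts make many of them after inflammatory signals: NF-kB drives the classical inducible ones such as Ccl2 and Cxcl1, interferons drive Cxcl10, and Cxcl12 is made by stromal cells without stimulation. CX3CL1 (fractalkine) differs from most others in that it is made on a stalk in the cell membrane, where it can hold cells that carry the receptor CX3CR1, and is released by the proteases ADAM10 and ADAM17.

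Promoter windows of 4 of the 8 genes were in the RefSeq table used here (GRCm38.p6), as 250 bases before and 50 after the start of the gene. The windows of Cx3cl1, Cxcl1 and Cxcl10 are shown because these genes carry the patterns described below: Cx3cl1 was called by genotype with OSM, Cxcl1 and Cxcl10 were called by array number, and Cxcl10 was highest in STAT3-/- MEFs. They lie at chr8:94771930-94772229 on the plus strand, chr5:90890995-90891294 on the plus strand and chr5:92348840-92349139 on the minus strand, and each is written 5′ to 3′ along its gene with motif matches in capitals.
Cx3cl1: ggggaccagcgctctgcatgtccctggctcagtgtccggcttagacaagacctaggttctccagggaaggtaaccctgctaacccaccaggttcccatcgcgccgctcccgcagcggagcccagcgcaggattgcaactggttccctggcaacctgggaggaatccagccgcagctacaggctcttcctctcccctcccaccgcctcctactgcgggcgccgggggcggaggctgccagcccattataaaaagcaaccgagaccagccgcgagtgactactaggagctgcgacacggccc
Cxcl1: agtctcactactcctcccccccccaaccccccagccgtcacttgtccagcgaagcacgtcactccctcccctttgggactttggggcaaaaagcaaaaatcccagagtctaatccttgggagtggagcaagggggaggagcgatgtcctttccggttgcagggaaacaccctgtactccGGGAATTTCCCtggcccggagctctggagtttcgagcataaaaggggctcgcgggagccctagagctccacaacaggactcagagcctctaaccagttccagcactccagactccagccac
Cxcl10: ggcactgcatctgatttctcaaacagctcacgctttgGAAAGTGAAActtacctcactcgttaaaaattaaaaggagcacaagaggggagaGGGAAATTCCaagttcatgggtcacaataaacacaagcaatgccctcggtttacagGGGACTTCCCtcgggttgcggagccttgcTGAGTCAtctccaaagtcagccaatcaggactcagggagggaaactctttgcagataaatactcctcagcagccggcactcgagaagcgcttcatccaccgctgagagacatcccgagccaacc
Both strands were searched for the NF-kB consensus, the STAT palindrome TTCNNNGAA, the core of the interferon-stimulated response element (ISRE), which is GAAA, then NN, then GAAA, and the AP-1 site TGANTCA. The capitals in Cxcl1 are a pair of overlapping NF-kB matches on opposite strands, whose first bases lie at -71 and -70 from the start. In Cxcl10 the capitals are, in order, an ISRE core at -213, NF-kB matches at -159 and -103, and an AP-1 match at -74. Of all 32851 promoter windows, 4.51% held the NF-kB consensus, 8.3% the STAT palindrome, 3.44% the ISRE core and 7.81% the AP-1 site. The Cx3cl1 window and the window of Cxcl12 (chr6:117168285-117168584, plus strand) held none of these letter strings, and no match says only that the letters are not in these 300 bases.

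Values are log2 expression as deposited, and a probe set was tested if it reached log2 5 on at least 2 of the 8 arrays, which 6756 did. Of the 12 chemokine probe sets 11 were tested, and each of these was at or above 5.605 on every array, so none entered through 1 group alone. The second Cx3cl1 probe set lay between 0.30 and 0.57 on all arrays and was not tested. Stat3, the targeted gene, was lower on every STAT3-/- array than on every STAT3+/+ array. A Stat3 probe set read 8.70 and 9.17 in STAT3-/- MEFs with OSM and 8.08 and 7.81 in untreated STAT3-/- MEFs, against 11.82 and 11.94 in STAT3+/+ MEFs with OSM and 10.11 and 10.50 in untreated STAT3+/+ MEFs. The other Stat3 probe set read 2.94 and 7.30, and 2.76 and 2.86, in the same STAT3-/- groups, against 11.99 and 12.57, and 9.80 and 10.95, in the STAT3+/+ groups. The STAT3-/- arrays thus kept signal above log2 5 on the first probe set, and the labels do not say which part of Stat3 is deleted or whether the probes lie in it. Of 14 fibroblast marker genes 12 were tested, and the probe sets of Vim and Thy1 stayed under log2 5. Of 15 leukocyte marker genes on the array 13 never reached log2 5, among them Ptprc (CD45). The other two did on every array, Cd14 with 9.34 to 11.62 and Csf1r with 8.80 to 10.20, and their part in the chemokine values was not tested. The median of the list lay between 2.94 and 3.34 in STAT3-/- MEFs with OSM, 2.98 and 3.19 in untreated STAT3-/- MEFs, 2.62 and 3.28 in STAT3+/+ MEFs with OSM and 2.74 and 3.36 in untreated STAT3+/+ MEFs.

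Cx3cl1 had by far the widest gap between genotypes among the 8 genes and was higher in STAT3-/- MEFs in both treatments. Ccl5 was higher in STAT3-/- MEFs by a smaller margin. Ccl2 and Ccl7 were more than 2-fold higher with OSM within both array numbers in both genotypes. Neither was called for OSM, with or without the array number as a term in the fit. The other clear pattern was the array number: 6 of the 8 genes were called higher on arrays numbered 03, beside 23.4% of all probe sets.

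**Figure D1:**
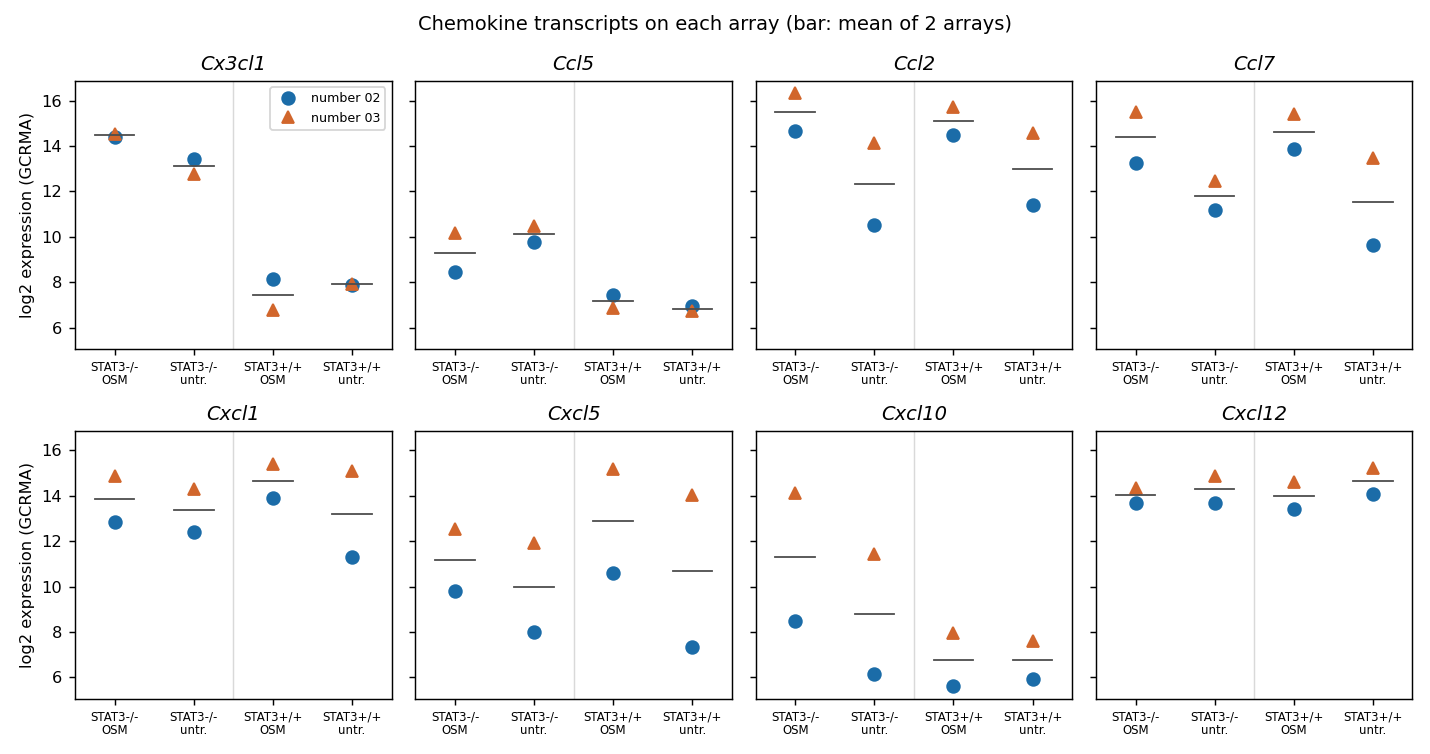
Log2 expression of the 8 chemokine genes on each of the 8 arrays, by group, with 1 panel per gene. Each point is 1 array, blue circles are arrays numbered 02 and orange triangles arrays numbered 03. Cx3cl1 lies between 12.75 and 14.55 in STAT3-/- MEFs and between 6.78 and 8.14 in STAT3+/+ MEFs, while Cxcl5 separates by array number in every group.

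With limma, an adjusted p under 0.05 was reached by 1 of the 11 chemokine probe sets, Cx3cl1, for STAT3-/- minus STAT3+/+ with OSM, where it was the only probe set of 6756 called (0.0148%), beside 243 at an unadjusted p under 0.05 (3.60%). No chemokine was called for OSM in STAT3-/- MEFs, for OSM in STAT3+/+ MEFs or for the difference between these OSM effects, and neither was any other probe set (0.00% in each). At an unadjusted p under 0.05 these comparisons gave 138 probe sets (2.04%), 126 (1.87%) and 29 (0.429%). A Cxcl12 probe set was among them for OSM in each genotype. Cx3cl1 was among them for OSM in STAT3-/- MEFs and for the difference between the OSM effects. The untreated arrays that chose Cx3cl1 enter both of these comparisons, so its place there is a description and no support. They also enter the pooled spread behind its call by genotype with OSM. The untreated genotype comparison, which chose Cx3cl1 and Ccl5, had no call among the 6756 either (0.00%), with 151 at an unadjusted p under 0.05 (2.24%). Because the comparisons share arrays, an array that is high in one of them also moves another, and their values are set side by side without a test of their likeness.

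A count chosen after the values were seen asked how many genes differed at least 2-fold in the same direction within numbers 02 and 03. For STAT3-/- over STAT3+/+ with OSM it held for 2 of the 8 genes, Cx3cl1 and Cxcl10, against 2.04% of all probe sets. In untreated cells it held for Cx3cl1 and Ccl5 (0.992% of all probe sets). These 2 genes were picked by that same difference, so the count follows from the choice and is no support. With OSM over untreated it held for Ccl2, Ccl7 and Cxcl10 in STAT3-/- MEFs (2.19% of all probe sets) and for Ccl2, Ccl7 and Cxcl5 in STAT3+/+ MEFs (2.01%). By the probe set that stands for each gene, none of the 8 was at least 2-fold lower within both numbers, though 1 other Cxcl12 probe set was with OSM in STAT3+/+ MEFs. This held for 1.73% of all probe sets by genotype with OSM, 1.04% by genotype untreated, 0.518% with OSM in STAT3-/- MEFs and 0.933% with OSM in STAT3+/+ MEFs. The median OSM difference of the 8 genes was 1.27 in STAT3-/- MEFs and 0.89 in STAT3+/+ MEFs, beside medians over all tested probe sets of 0.02 and -0.04.

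**Figure D2:**
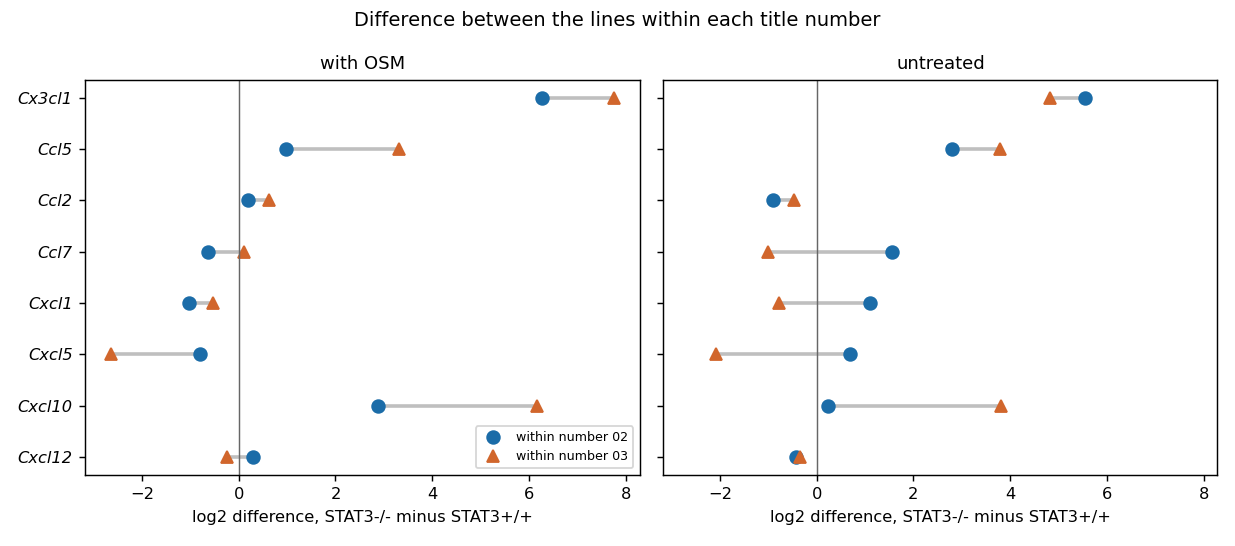
Log2 difference, STAT3-/- minus STAT3+/+, of each chemokine gene with OSM (left) and untreated (right). Blue circles are the difference within arrays numbered 02, orange triangles within arrays numbered 03, and the vertical line marks no difference. Cx3cl1 is above 4.8 in all 4 within-number differences and Ccl5 is above 0.9, whereas Cxcl5, Cxcl1 and Ccl7 change side between the numbers in untreated cells.

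Cx3cl1 read 14.40 and 14.55 on arrays 02 and 03 of STAT3-/- MEFs with OSM and 13.45 and 12.75 in untreated STAT3-/- MEFs. It read 8.14 and 6.78 in STAT3+/+ MEFs with OSM and 7.89 and 7.92 in untreated STAT3+/+ MEFs. All 4 STAT3-/- arrays were far above all 4 STAT3+/+ arrays, with no overlap, and within STAT3-/- MEFs both OSM arrays were above both untreated ones, as was so for 14.4% of all probe sets. With OSM, 3 of the 8 genes (Cx3cl1, Ccl5 and Cxcl10) were higher in STAT3-/- MEFs with no overlap, as were 11.2% of all probe sets. With OSM, Cx3cl1 averaged 14.47 ± 0.10 in STAT3-/- MEFs and 7.46 ± 0.96 in STAT3+/+ MEFs (SD, n = 2 each). The difference was 7.01 ± 0.50 (SE), or 129-fold, with 6.26 within number 02 and 7.77 within number 03 (limma, adjusted p = 0.0488). The fit takes its spread from all 8 arrays, so the untreated arrays that chose the gene also enter this SE and p-value. The gene was chosen by a difference between the same lines, so the call is not independent of the choice. Untreated, the means were 13.10 ± 0.49 in STAT3-/- MEFs and 7.91 ± 0.02 in STAT3+/+ MEFs (SD, n = 2 each), a difference of 5.19, with 5.55 within number 02 and 4.83 within number 03.

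The direction of this difference was the same in every alternative tried, but the call was not. It was lost without the intensity trend (adjusted p = 0.0581), in a fit of only these 4 arrays (0.840), after quantile normalization (0.0816), after median centring (0.129) and with values under log2 5 set to 5 (0.0532). Leaving out 1 array also ended it, with adjusted p = 0.883 and 0.487 without array 02 or 03 of STAT3-/- MEFs with OSM, 0.216 and 0.206 without untreated STAT3-/- array 02 or 03, 0.118 without array 03 of STAT3+/+ MEFs with OSM, and 0.246 and 0.240 without untreated STAT3+/+ array 02 or 03. The exception was array 02 of STAT3+/+ MEFs with OSM, without which the adjusted p was 0.0463.

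The OSM difference of Cx3cl1 was 1.37 ± 0.50 (SE) in STAT3-/- MEFs, with 0.95 within number 02 and 1.79 within number 03, and it was not called (limma, adjusted p = 1, unadjusted p = 0.0338). The untreated arrays in this comparison also chose the gene. In STAT3+/+ MEFs it was -0.45 ± 0.50 (SE), with 0.24 and -1.14 within the numbers (adjusted p = 1). OSM thus went with a higher value within both numbers in STAT3-/- MEFs, and with values on either side of 0 in STAT3+/+ MEFs. The OSM difference in STAT3-/- MEFs minus that in STAT3+/+ MEFs was 1.82, with 0.71 and 2.93 within the numbers, and is given with no test because the untreated arrays that chose the gene enter it.

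The genes next to Cx3cl1 on chromosome 8 were compared after the Cx3cl1 values were seen, as a description. Its neighbours in the RefSeq order of coding genes are other chemokine genes, Ccl22 before it and Ccl17 after it. Of the 20 tested genes nearest to Cx3cl1, 10 on each side, 16 were at least 2-fold higher in untreated STAT3-/- MEFs than in untreated STAT3+/+ MEFs within number 02, against 5.74% of all probe sets. Within number 03 it was 3 of 20, against 5.71%. With OSM it was 17 of 20 within number 02 (8.61% of all) and 4 of 20 within number 03 (6.91%). The difference of the region was thus seen mainly within number 02, with a median over the 20 genes of 2.16 with OSM and 1.84 untreated, beside 0.19 and 0.19 within number 03. At least Ccl17 among the 20 passed the filter only through STAT3-/- MEFs, and such genes were not removed. The counts are therefore a description and no support for a genotype difference.

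In the next 10 tested genes on each side, 12 of 20 with OSM and 14 of 20 untreated were at least 2-fold higher within number 02, and 2 of 20 in each treatment within number 03. These counts include Adcy7, which passed the filter only through STAT3-/- MEFs. From place 21 to 30 on each side the counts within number 02 were 2 of 20 with OSM and 5 of 20 untreated, and 0 in each treatment within number 03. From place 31 to 40 on each side the counts within number 02 were 1 with OSM and 0 untreated. Within number 03 they were 2 with OSM and 0 untreated. Cx3cl1 lay above its neighbours in both numbers: its differences of 7.77 with OSM and 4.83 untreated within number 03 stood beside highest values of 2.55 and 3.49 among the 20 nearest genes. Its differences within number 02, 6.26 and 5.55, stood beside highest values of 4.36 and 5.17. What part the values of this region had in the Cx3cl1 difference was not tested.

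**Figure D3:**
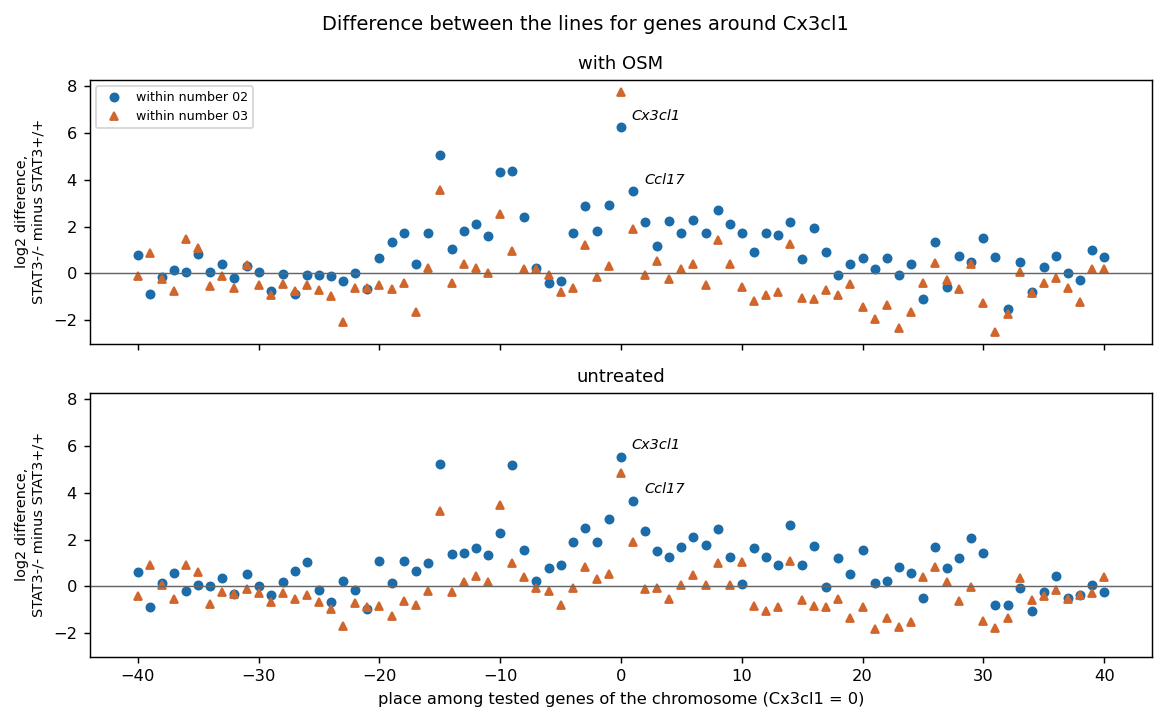
Log2 difference, STAT3-/- minus STAT3+/+, of tested genes by their place on chromosome 8 relative to Cx3cl1, with OSM (top) and untreated (bottom). The horizontal axis counts tested genes before (negative) and after (positive) Cx3cl1, blue circles are number 02 and orange triangles number 03. Most genes within 10 places are above a difference of 1 within number 02 and near 0 within number 03, while Cx3cl1 at place 0 is high in both.

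Ccl17, a CC ligand of CCR4 made mainly by dendritic cells, read 7.53 and 6.88 in STAT3-/- MEFs with OSM and 7.69 and 6.39 in untreated STAT3-/- MEFs, against 4.02 and 4.98 in STAT3+/+ MEFs with OSM and 4.02 and 4.48 in untreated STAT3+/+ MEFs. It reached log2 5 in STAT3-/- MEFs alone and passed the filter only through that genotype, so its differences are a description. With OSM they were 3.50 within number 02 and 1.90 within number 03, and untreated 3.67 and 1.91. Irx3, the tenth tested gene before Cx3cl1, was also at least 2-fold higher in all 4 within-number differences. So were Adcy7 and Rrad, which lie among the next 10 tested genes on each side. This held for 0.607% of all tested probe sets. Adcy7 read 3.31 to 4.16 in STAT3+/+ MEFs and passed the filter only through STAT3-/- MEFs, so its differences are a description.

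Ccl5 (RANTES), a CC ligand that draws T cells and monocytes, read 8.44 and 10.18 on arrays 02 and 03 of STAT3-/- MEFs with OSM and 9.75 and 10.50 in untreated STAT3-/- MEFs. It read 7.46 and 6.86 in STAT3+/+ MEFs with OSM and 6.95 and 6.72 in untreated STAT3+/+ MEFs. Every STAT3-/- array was above every STAT3+/+ array, and the lowest STAT3-/- value was the OSM array numbered 02. Of all probe sets 11.2% were higher without overlap with OSM alone and 6.81% untreated alone. The share over all 8 arrays together was not counted, and the untreated arrays chose Ccl5. Untreated means were 10.12 ± 0.53 in STAT3-/- MEFs and 6.83 ± 0.17 in STAT3+/+ MEFs (SD, n = 2 each), a difference of 3.29, with 2.80 within number 02 and 3.78 within number 03. With OSM the difference was 2.15 ± 0.64 (SE), with 0.98 and 3.31 within the numbers, and was not called (limma, adjusted p = 1, unadjusted p = 0.0145). The untreated arrays that chose Ccl5 also enter the spread behind this SE and p-value.

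The OSM difference of Ccl5 was -0.82 ± 0.64 (SE) in STAT3-/- MEFs, with -1.31 and -0.32 within the numbers, and 0.33 ± 0.64 (SE) in STAT3+/+ MEFs, with 0.51 and 0.15. It was thus below 0 within both numbers in STAT3-/- MEFs and above 0 within both in STAT3+/+ MEFs. The difference between these effects was -1.15, given with no test because the untreated arrays that chose Ccl5 enter it.

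Ccl2 and Ccl7 are adjacent genes on chromosome 11 that encode ligands of CCR2, the receptor that brings monocytes to inflamed tissue. Ccl2 (MCP-1) read 14.66 and 16.32 on arrays 02 and 03 of STAT3-/- MEFs with OSM and 10.50 and 14.12 in untreated STAT3-/- MEFs. In STAT3+/+ MEFs it read 14.48 and 15.70 with OSM and 11.41 and 14.59 untreated. Within each number and genotype the OSM array was higher, and the treatments did not overlap in STAT3-/- MEFs (14.4% of all probe sets were higher with OSM without overlap there). In STAT3+/+ MEFs they did, since the untreated array numbered 03 was above the OSM array numbered 02. The OSM difference was 3.18 ± 1.51 (SE) in STAT3-/- MEFs, with 4.16 and 2.20 within the numbers, and was not called (limma, adjusted p = 1, unadjusted p = 0.0783). In STAT3+/+ MEFs it was 2.09 ± 1.51 (SE), with 3.07 and 1.11 (adjusted p = 1). This fit leaves the array numbers in the residual spread. With the number as a term the SE of both Ccl2 OSM differences was 0.61. Neither was called (limma, adjusted p = 0.325 in STAT3-/- MEFs and 0.515 in STAT3+/+ MEFs, unadjusted p = 0.00239 and 0.0155).

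Between genotypes Ccl2 differed by 0.40 ± 1.51 (SE) with OSM, with 0.18 within number 02 and 0.62 within number 03, and by -0.69 untreated, with -0.91 and -0.47. The signs were therefore opposite in the treatments. The difference between the OSM effects was 1.09 ± 2.13 (SE) (limma, adjusted p = 1).

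Ccl7 (MCP-3) read 13.24 and 15.51 on arrays 02 and 03 of STAT3-/- MEFs with OSM and 11.18 and 12.46 in untreated STAT3-/- MEFs. In STAT3+/+ MEFs it read 13.86 and 15.40 with OSM and 9.63 and 13.48 untreated. In both genotypes the OSM arrays lay above the untreated arrays with no overlap, as was so for 14.4% of all probe sets in STAT3-/- MEFs and 8.29% in STAT3+/+ MEFs. The OSM difference was 2.56 ± 1.41 (SE) in STAT3-/- MEFs, with 2.06 and 3.05 within the numbers, and 3.08 ± 1.41 (SE) in STAT3+/+ MEFs, with 4.24 and 1.93. Neither was called (limma, adjusted p = 1 for both, unadjusted p = 0.119 and 0.0710). With the array number as a term the SE was 0.61 in both genotypes. Neither was called in that fit (limma, adjusted p = 0.369 and 0.320, unadjusted p = 0.00658 and 0.0028). The genotype difference was -0.26 ± 1.41 (SE) with OSM, with a 95% interval of -3.70 to 3.18.

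Cxcl1 and Cxcl5 encode CXC ligands of CXCR2 that attract neutrophils. The brighter Cxcl1 (KC) probe set read 12.86 and 14.86 on arrays 02 and 03 of STAT3-/- MEFs with OSM and 12.40 and 14.30 in untreated STAT3-/- MEFs, against 13.88 and 15.39 in STAT3+/+ MEFs with OSM and 11.30 and 15.08 in untreated STAT3+/+ MEFs. All 4 arrays numbered 03 were above all 4 numbered 02, whatever the genotype or treatment. The OSM difference was 0.51 ± 1.42 (SE) in STAT3-/- MEFs, with 0.46 and 0.56 within the numbers, and 1.45 ± 1.42 (SE) in STAT3+/+ MEFs, with 2.58 and 0.31 (limma, adjusted p = 1 for both). The second Cxcl1 probe set read 11.59 and 13.76, and 11.14 and 13.52, in STAT3-/- MEFs with and without OSM, against 13.10 and 14.69, and 9.80 and 14.13, in STAT3+/+ MEFs with and without it. Its OSM differences had the same signs, 0.34 in STAT3-/- MEFs and 1.93 in STAT3+/+ MEFs.

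Cxcl5 (LIX) read 9.78 and 12.52 on arrays 02 and 03 of STAT3-/- MEFs with OSM and 8.02 and 11.93 in untreated STAT3-/- MEFs. In STAT3+/+ MEFs it read 10.59 and 15.17 with OSM and 7.33 and 14.01 untreated. As for Cxcl1, all arrays numbered 03 were above all numbered 02, and within each number and genotype the OSM array was the higher one. The OSM difference was 1.18 ± 2.70 (SE) in STAT3-/- MEFs, with 1.76 and 0.59 within the numbers, and 2.21 ± 2.70 (SE) in STAT3+/+ MEFs, with 3.26 and 1.16 (limma, adjusted p = 1 for both). The genotype difference with OSM was -1.73 ± 2.70 (SE), with -0.81 and -2.65 within the numbers (adjusted p = 1), and the untreated difference of -0.70 was made of 0.69 within number 02 and -2.08 within number 03.

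Cxcl10 (IP-10), the CXCR3 ligand named for its induction by interferon, read 8.48 and 14.11 on arrays 02 and 03 of STAT3-/- MEFs with OSM and 6.17 and 11.41 in untreated STAT3-/- MEFs. It read 5.605 and 7.94 in STAT3+/+ MEFs with OSM and 5.93 and 7.61 in untreated STAT3+/+ MEFs. The highest values were the arrays numbered 03 of STAT3-/- MEFs, and the untreated STAT3-/- array numbered 02 lay among the STAT3+/+ arrays. With OSM the genotype difference was 4.52 ± 2.36 (SE), with 2.87 within number 02 and 6.17 within number 03, and was not called (limma, adjusted p = 1). Untreated it was 2.02, with 0.24 and 3.80 within the numbers.

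The OSM difference of Cxcl10 was 2.50 ± 2.36 (SE) in STAT3-/- MEFs, with 2.31 and 2.70 within the numbers, and 0.00 ± 2.36 (SE) in STAT3+/+ MEFs, with -0.33 and 0.33 (limma, adjusted p = 1 for both). The within-number values were close to each other in each genotype, while this fit leaves the numbers in the residual spread. With the number as a term the SE in STAT3-/- MEFs was 1.05, and OSM was still not called there (limma, adjusted p = 0.462). The same fit did not call the difference between the OSM effects (SE 1.49, adjusted p = 0.913). The difference between the OSM effects was 2.50 ± 3.34 (SE), with 2.64 and 2.37 within the numbers (adjusted p = 1). At least 2-fold higher within both numbers by this measure were 1.42% of all probe sets and 2 of the 8 chemokine genes, Cxcl10 and Ccl2.

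Interferon-stimulated genes were, like Cxcl10, highest on the arrays numbered 03 of STAT3-/- MEFs. The median of 22 such genes was 10.25 and 13.56 on arrays 02 and 03 of STAT3-/- MEFs with OSM and 6.34 and 12.38 in untreated STAT3-/- MEFs, against 8.28 and 11.05 in STAT3+/+ MEFs with OSM and 5.91 and 9.83 in untreated STAT3+/+ MEFs. Of these genes Irf7, Mx1, Psmb9 and Rsad2 passed the filter only through STAT3-/- MEFs, so the median is no support for a genotype difference. With OSM none of the 22 was called by genotype. The largest differences with the same sign within both numbers were Ifit3, with 4.17 within number 02 and 4.73 within number 03, Rsad2, with 0.22 and 8.09, and the immunoproteasome subunit Psmb8, with 2.86 and 4.67. Nearly all of the Rsad2 value came from number 03. What part this list had in the Cxcl10 values was not tested.

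Cxcl9, a related CXCR3 ligand induced by interferon gamma, read 10.45 on array 03 of STAT3-/- MEFs with OSM, the array on which Cxcl10 was highest. It lay between 2.47 and 3.16 on the other 7 arrays and was not tested. A single array thus held all of the Cxcl9 signal above log2 5. Ccl11 (eotaxin), which follows Ccl7 on chromosome 11, also reached log2 5 only there, with 6.07.

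Cxcl12 (SDF-1), the CXCR4 ligand that stromal cells make without stimulation, read 13.70 and 14.35 on arrays 02 and 03 of STAT3-/- MEFs with OSM and 13.67 and 14.88 in untreated STAT3-/- MEFs. In STAT3+/+ MEFs it read 13.41 and 14.58 with OSM and 14.09 and 15.21 untreated. These values spanned 1.80, the least of the 8 genes, and the groups overlapped in every comparison. The genotype difference was 0.03 ± 0.63 (SE) with OSM, a sign that turned to -0.074 after median centring, and -0.38 untreated. The OSM difference was -0.25 ± 0.63 (SE) in STAT3-/- MEFs, with 0.03 and -0.53 within the numbers, and -0.65 ± 0.63 (SE) in STAT3+/+ MEFs, with -0.68 and -0.63 (limma, adjusted p = 1 for both).

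The other Cxcl12 probe sets gave lower values with OSM in all within-number differences. One read 13.42 and 12.84 in STAT3-/- MEFs with OSM and 13.82 and 14.21 in untreated STAT3-/- MEFs, against 12.96 and 12.69 in STAT3+/+ MEFs with OSM and 14.21 and 13.84 in untreated STAT3+/+ MEFs. On it the OSM arrays were below the untreated arrays with no overlap in both genotypes, as were 12.3% of all probe sets in STAT3-/- MEFs and 9.31% in STAT3+/+ MEFs. Its OSM difference was -0.89 ± 0.30 (SE) in STAT3-/- MEFs and -1.20 ± 0.30 (SE) in STAT3+/+ MEFs, neither of them called (limma, adjusted p = 1, unadjusted p = 0.0252 and 0.0072). The third probe set had OSM differences of -0.53 in STAT3-/- MEFs and -0.98 in STAT3+/+ MEFs. The fitted OSM differences of the 3 probe sets thus share a sign and differ in size, and the annotation used here does not say which transcripts each one reads.

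**Figure D4:**
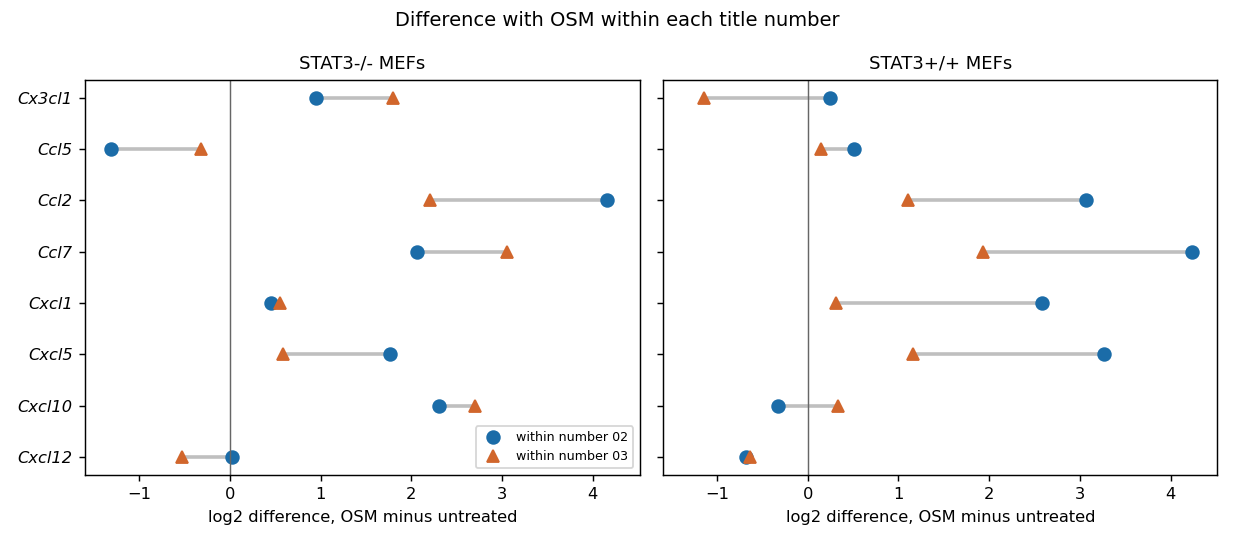
Log2 difference, OSM minus untreated, of each chemokine gene in STAT3-/- MEFs (left) and STAT3+/+ MEFs (right). Blue circles are the difference within arrays numbered 02 and orange triangles within arrays numbered 03. Ccl2 and Ccl7 are above 1 in all 4 differences, Cxcl10 is above 2 in STAT3-/- MEFs and within 0.33 of 0 in STAT3+/+ MEFs, and Ccl5 lies below 0 in STAT3-/- MEFs and above 0 in STAT3+/+ MEFs.

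Most of the chemokines differed by array number. In a fit with the number as a term, 6 of the 8 genes and 8 of the 11 probe sets were higher on arrays numbered 03 than on arrays numbered 02, beside 23.4% of all probe sets called higher and 41.1% called in either direction. On 3 genes, Cxcl5, Cxcl1 and Cxcl12, all arrays numbered 03 were above all numbered 02, as was so for 22.0% of all probe sets. Cxcl5 was higher by 4.48 ± 0.61 (SE, limma, adjusted p = 0.00639) and Cxcl10 by 3.72 ± 0.75 (adjusted p = 0.0148). Ccl2 was higher by 2.42 ± 0.43 (adjusted p = 0.0111), Cxcl1 by 2.30 ± 0.38 (0.0092) and Ccl7 by 2.24 ± 0.43 (0.0135). The call of Cxcl10 was lost without untreated STAT3-/- array 02 (adjusted p = 0.0544) or 03 (0.0536).

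Cxcl12 was higher by 1.04 ± 0.13 (SE, limma, adjusted p = 0.00522) on its brightest probe set, while a second one gave -0.21 and was not called (0.386). Cx3cl1 and Ccl5, the genes with the widest untreated genotype difference, were not called by number, with -0.47 ± 0.28 (SE, adjusted p = 0.225) and 0.41 ± 0.41 (0.445). For Ccl5 the sign of this difference depended on genotype: number 03 minus 02 was 1.74 with OSM and 0.75 untreated in STAT3-/- MEFs, and -0.59 with OSM and -0.24 untreated in STAT3+/+ MEFs.

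Within each group the number difference of Cxcl5 ran from 2.74 in STAT3-/- MEFs with OSM to 6.68 in untreated STAT3+/+ MEFs. For Ccl2 it was 1.66 with OSM and 3.62 untreated in STAT3-/- MEFs, and 1.22 with OSM and 3.18 untreated in STAT3+/+ MEFs. The untreated arrays thus differed more by number than the OSM arrays did for Ccl2 in both genotypes. On the same arrays 17 of 22 interferon-stimulated genes were called higher in number 03. Of those called, Irf7, Usp18, Ifit3, Mx2 and Psmb9 passed the filter only through arrays numbered 03, so the count is a description. Mx1 and Rsad2, which also passed the filter that way, were not called. Of 20 tested NF-kB pathway genes 5 were called higher and 4 lower, close to the shares of all probe sets called (23.4% higher, 41.1% in either direction).

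**Figure D5:**
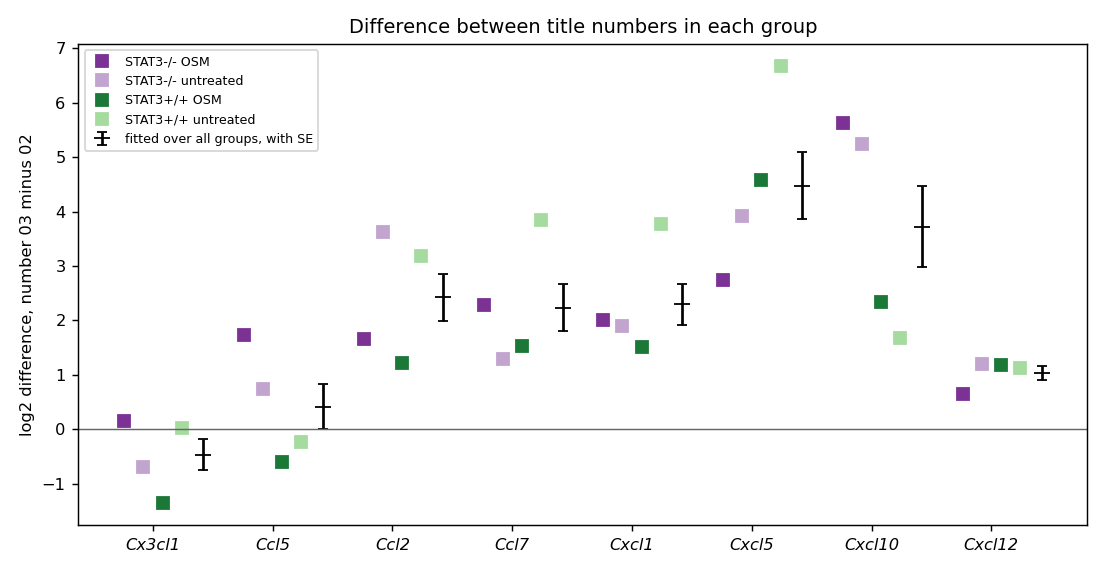
Log2 difference, number 03 minus number 02, of each chemokine gene. Coloured squares are the difference within each of the 4 groups, and black bars are the fitted difference over all groups with its standard error. Cxcl5, Cxcl10, Ccl2, Cxcl1, Ccl7 and Cxcl12 lie above 0 in every group, while Cx3cl1 and Ccl5 have groups on both sides of 0.

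Few other chemokine ligands had signal in these cells. Of 30 further ligand genes 17 were on the array and 4 were tested: Ccl17, described above, Ccl9, Ccl25 and Cxcl14. No ligand was called by genotype or OSM. Cxcl14 reached log2 5 only on the STAT3-/- arrays numbered 03 and passed the filter through them. Ccl9 had an OSM difference of 0.39 ± 1.20 (SE) in STAT3-/- MEFs and 1.40 ± 1.20 (SE) in STAT3+/+ MEFs, neither of them called (adjusted p = 1).

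Of 24 chemokine receptor genes 20 were on the array and 18 never reached log2 5. The highest receptor value was 5.23, and Ccr6 and Ccr7 were the 2 tested. Receptor transcripts were thus near or under the floor on all arrays, where GCRMA values carry little information on differences.

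Among 11 genes for proteases and inhibitors that act on chemokines, 7 were tested and none was called by genotype or OSM. Adam10, which sheds CX3CL1 from the membrane, read 12.53 and 12.84 in STAT3-/- MEFs with OSM and 11.58 and 12.64 in untreated STAT3-/- MEFs, against 12.41 and 13.00 in STAT3+/+ MEFs with OSM and 12.54 and 13.20 in untreated STAT3+/+ MEFs. It was well above the floor on every array, with overlapping groups. Mmp9 (gelatinase B) read 7.32 to 8.93 in STAT3-/- MEFs and 4.32 to 5.52 in STAT3+/+ MEFs, and passed the filter only through STAT3-/- MEFs, so this is a description. Timp1, an inhibitor of metalloproteases, had an OSM difference of 1.71 ± 0.39 (SE) in STAT3+/+ MEFs (adjusted p = 1).

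The NF-kB pathway list, with 20 tested genes, had a median OSM difference of 0.25 in STAT3-/- MEFs and 0.42 in STAT3+/+ MEFs, with 13 and 17 genes above 0 and none called. Its largest values with the same sign within both numbers were Nfkbiz (4.06), Zfp36 (2.06) and Il1r1 (1.69) in STAT3-/- MEFs and Bcl3 (3.54), Myd88 (2.06) and Il1r1 (1.96) in STAT3+/+ MEFs. The Nfkbiz value had an SE of 2.66 and was made of 6.20 within number 02 and 1.92 within number 03. Its untreated STAT3-/- array numbered 02 read 2.57, under log2 5. With OSM, Bcl3, an atypical I-kB protein and known STAT3 target, read 6.55 and 7.77 in STAT3-/- MEFs against 11.48 and 11.30 in STAT3+/+ MEFs, a difference of -4.23 ± 1.01 (SE) that was not called (limma, adjusted p = 0.810). Tnfaip3 (A20), an NF-kB-induced feedback inhibitor, read 4.10 and 4.35 against 6.06 and 5.40 in the same groups. It reached log2 5 on those STAT3+/+ arrays alone and passed the filter through them, so its values are a description.

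The genes whose values over the 8 arrays were most like those of Cx3cl1 by Pearson's r were Poldip3 (0.972), Postn (0.962), Zfp982 (0.952), Adcy7 (0.946) and Tnc (0.945). Those most like Ccl5 were Grina (0.969), Tnc (0.949), Sprr2b (0.939), Ghr (0.936) and Aldh3a1 (0.925). These are descriptions over 8 arrays that fall into 4 of each line, so any gene that differs between the lines scores high. Tnc, which encodes the matrix protein tenascin C, was in both lists. Adcy7 lies in the stretch of chromosome 8 around Cx3cl1 that is described above. Postn and Adcy7 stayed under log2 5 in STAT3+/+ MEFs and passed the filter only through STAT3-/- MEFs.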

How the data were processed

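Total RNA of STAT3-/- and STAT3+/+ MEFs was hybridised to Affymetrix arrays. The authors deposited log2 values per probe set, made with the affy package and GCRMA per the submitters' processing notes. The sources used here give neither tool's version and do not say if the 8 arrays were normalized as one set. GCRMA can draw dim probe sets to low values that vary little, which widens log2 differences from a dim group. Scanner files were not used. Of 12488 probe sets 66 controls were set aside, and the annotation gave 10833 of the rest 1 symbol, 396 several and 1193 none. The number of arrays limits the precision.

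Groups and numbers come from the titles. The description of every sample, untreated ones included, carries the OSM protocol, so the titles alone separate the treatments. The 8 genes and all gene lists were chosen with earlier results of these data known. Probe sets with log2 5 or more on at least 2 arrays (6756) were fitted on all 8 arrays with 4 group means in limma 3.58.1 (R 4.3.3, lmFit and eBayes with an intensity trend, two-sided, Benjamini-Hochberg adjustment, called under 0.05). The number comparison added the number as a term. The probe set with the highest mean stood for a gene in counts. The script was tested on simulated data. All members are named, and of each list up to 4 genes that passed or, if none did, up to 3 with the largest differences of the same sign within both numbers. For Cx3cl1 and Ccl5 the 5 genes most like each by Pearson's r are also named. Ccl11, Cxcl9, Adam10, Ptprc, Cd14, Csf1r, Irf1, genes that passed the filter through 1 set of arrays, the neighbours of Cx3cl1 and the absent markers were singled out after their values were seen. Alternatives were the filter, the trend, the arrays in the fit, the scaling, a floor, the replicate block, other probe sets and leaving out each array.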

Additional observations from a re-analysis of the deposited data

Results flagged for a closer look

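For 2 results every array pair of one group went one way and every pair of the other group the opposite way. The OSM difference of Ccl5 was below 0 within both numbers in STAT3-/- MEFs (-1.31 and -0.32) and above 0 within both in STAT3+/+ MEFs (0.51 and 0.15). The difference between these effects was -1.15 and is given with no test, because the untreated arrays that chose Ccl5 enter it.

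The genotype difference of Ccl2 was above 0 within both numbers with OSM (0.18 and 0.62) and below 0 within both in untreated cells (-0.91 and -0.47). The difference between these differences was 1.09 (limma, adjusted p = 1 for the interaction). With 2 arrays a group, such opposite signs also arise from the spread between arrays, and no cause was tested for either gene.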

How the results depend on the processing

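With OSM, the count of chemokine probe sets called for STAT3-/- minus STAT3+/+ was 1 and became 0 without the intensity trend, in a fit of only the groups compared, after quantile normalization, after median centring and with values under log2 5 set to 5, and the cause was not tested. Over the fits that left out 1 array it was 0 to 1. Over all probe sets that comparison's calls numbered 1, with 0 under the same 5 settings and 7 with the replicate block. With that block the adjusted p of Cx3cl1 was 0.0162, the chemokine count stayed 1, and OSM in STAT3-/- and in STAT3+/+ MEFs gave 2 calls and 1 call, none of them a chemokine. Of the interferon-stimulated genes the block called 1 by genotype with OSM, Irf1 (adjusted p = 0.0387). Array differences 03 minus 02 correlated between groups (r across probe sets 0.589 to 0.911), but 2 numbers are too few to show that they pair the samples. The floor at log2 5 gave 1 call for OSM in STAT3-/- MEFs. For number 03 minus 02, no filter gave 7210 calls among 12422 probe sets, in place of 2775 among 6756. The median number difference was then 0.24 in place of 0.09, so the dim probe sets also tended to be higher on arrays numbered 03. The cause was not tested. Median centring moved the median number difference of all probe sets from 0.09 to -0.18. For Cxcl12 the genotype difference with OSM turned to -0.074 after median centring, and number 03 minus 02 was -0.21 on another probe set.

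Leaving out each array in turn turned the sign of the following differences, none of which had been called. The untreated STAT3-/- minus STAT3+/+ difference ran from -2.50 to 1.12 for Ccl2, -1.66 to 2.19 for Ccl7, -1.73 to 2.05 for Cxcl1, -4.04 to 2.64 for Cxcl5, -0.60 to 4.64 for Cxcl10 and -0.98 to 0.22 for Cxcl12. The STAT3-/- minus STAT3+/+ difference with OSM ran from -0.43 to 1.23 for Ccl2, -1.39 to 0.88 for Ccl7, -1.78 to 0.22 for Cxcl1, -4.02 to 0.56 for Cxcl5 and -0.56 to 0.61 for Cxcl12. OSM in STAT3-/- MEFs ran from -1.69 to 0.051 for Ccl5, -0.49 to 1.51 for Cxcl1, -0.78 to 3.13 for Cxcl5, -0.31 to 5.32 for Cxcl10 and -0.85 to 0.35 for Cxcl12. OSM in STAT3+/+ MEFs ran from -1.13 to 0.23 for Cx3cl1, -0.44 to 3.34 for Cxcl1, -1.13 to 5.55 for Cxcl5 and -1.17 to 1.17 for Cxcl10. The OSM effect in STAT3-/- minus that in STAT3+/+ MEFs ran from -0.71 to 2.90 for Ccl2, -2.45 to 1.40 for Ccl7, -2.83 to 0.95 for Cxcl1, -4.37 to 2.31 for Cxcl5, -0.31 to 5.32 for Cxcl10 and -0.20 to 1.01 for Cxcl12. Number 03 minus 02 ran from -0.028 to 0.75 for Ccl5. Cx3cl1 kept its sign in both genotype comparisons, from 6.33 to 7.69 with OSM and 4.84 to 5.54 untreated.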
